A study of Mus musculus with 2 samples.

Results

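Aminoacyl-tRNA synthetases join each amino acid to the tRNAs that decode it. The 36 mouse genes described here are the synthetase genes of the cytosol and of the mitochondrion named on a list of symbols, out of 21887 protein-coding genes in the RefSeq table of build GRCm38.p6, the patched form of mm10. Of these, 35 matched by symbol and Mars matched by a synonym. By symbol, 20 genes counted as cytosolic and 16, whose symbols end in 2, as mitochondrial. Acetylation of histone H4 at lysine 16 (H4K16ac), a mark of open, transcribed chromatin, had been mapped by CUT&Tag, in which an antibody brings a transposase to the marked nucleosomes. The measurements are 2 peak lists, one for each of 2 libraries of primary mouse bone marrow-derived macrophages. One library was from cells labelled WT and the other from cells labelled KAT8-cKO, read here as a conditional knockout and called KAT8-deficient. The enzyme lost in the latter, KAT8 (also MOF), is the main H4K16 acetyltransferase of mammals. Cells of both genotypes were grown in M-CSF at 20 ng/ml, the growth factor that drives macrophage differentiation, and both were given the TLR7 agonist R848 at 100 ng/ml for 2 h, so no unstimulated cells enter the comparison. The sources used here do not give how Cre was driven, how complete the deletion was, the age of the mice or whether animals were pooled.

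Mammalian cells carry separate nuclear genes for most cytosolic and mitochondrial synthetases, while GARS and KARS each serve both compartments. Several cytosolic synthetases are held with scaffold proteins in the multisynthetase complex. Many cytosolic synthetase genes are also targets of ATF4, the transcription factor of the amino acid response, which binds DNA with C/EBP partners at composite elements.

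With 1 library per genotype there is no replicate error, and no test between the genotypes was possible. The wild-type list held 58229 peaks and the KAT8-deficient list 55149. Each peak carries a fold over the caller's background and a q-value. Both are the authors' peak caller's own values and serve here to describe and rank peaks within a list. The fold and p of a peak together fix how many fragments lay over its summit, and a whole number came out for 99.993% of the peaks of each list within a relative tolerance of 0.0001. The background over the whole genome came out at 3.09 in the wild-type and 3.68 in the KAT8-deficient library, a ratio of 1.19, so equal folds or q-values do not mean equal signal in the 2 lists. Summit counts were therefore also divided by this background and called scaled counts. Macrophage marker genes had a peak within 1 kb of a gene end for 9 of 10 in the wild-type and 6 of 10 in the KAT8-deficient list, beside 46.8% and 43.3% of all genes. At q under 0.05 these counts were 3 and 3, with 1 gene in both lists, beside 36.8%, 31.3% and 25.3% of all genes, so the markers do not set the labelled cell type apart at that threshold. With no limit on q, the counts were 2 and 0 of 6 for T cell markers, 1 and 1 of 6 for B cell markers and 2 and 2 of 6 for neutrophil markers, and the neutrophil counts were the same at q under 0.05.

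The promoters of Aars, whose wild-type start peak had the highest −log10 q and summit count of the set, of further cytosolic genes whose promoters hold the amino acid response element, and of the mitochondrial gene Rars2 are printed here because the results return to them. They are from RefSeq, build GRCm38.p6, 5′ to 3′ on the gene's strand, from 250 bases before the start to 50 bases after it. In the first 3 the capitals mark the element TGATGNAAN, searched on both strands, and in Rars2 they mark the core of ETS-factor sites, CCGGAAGT. All 4 are matched on the opposite strand, so the capitals show the reverse complement of those letters. The coordinates are chr8:111033592-111033891 on the plus strand for Aars, chr15:11399609-11399908 on the minus strand for Tars, chr13:49681880-49682179 on the plus strand for Iars and chr4:34614707-34615006 on the plus strand for Rars2.
Aars: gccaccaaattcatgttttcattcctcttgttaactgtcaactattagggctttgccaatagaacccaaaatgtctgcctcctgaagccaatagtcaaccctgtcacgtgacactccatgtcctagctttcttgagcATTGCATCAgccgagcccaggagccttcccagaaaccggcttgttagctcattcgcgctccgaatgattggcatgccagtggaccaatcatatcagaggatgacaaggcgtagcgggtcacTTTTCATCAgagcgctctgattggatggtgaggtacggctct
Tars: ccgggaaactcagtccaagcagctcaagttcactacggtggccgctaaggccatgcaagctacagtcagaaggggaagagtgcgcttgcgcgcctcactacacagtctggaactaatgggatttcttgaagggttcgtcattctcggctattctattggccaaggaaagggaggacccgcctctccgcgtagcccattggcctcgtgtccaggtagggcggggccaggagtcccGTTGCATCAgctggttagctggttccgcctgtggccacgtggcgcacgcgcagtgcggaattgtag
Iars: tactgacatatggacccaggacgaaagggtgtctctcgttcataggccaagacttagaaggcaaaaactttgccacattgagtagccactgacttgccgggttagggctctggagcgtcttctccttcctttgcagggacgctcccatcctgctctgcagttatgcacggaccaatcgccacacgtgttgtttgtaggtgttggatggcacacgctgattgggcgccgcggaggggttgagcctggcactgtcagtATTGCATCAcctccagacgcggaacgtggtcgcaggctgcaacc
Rars2: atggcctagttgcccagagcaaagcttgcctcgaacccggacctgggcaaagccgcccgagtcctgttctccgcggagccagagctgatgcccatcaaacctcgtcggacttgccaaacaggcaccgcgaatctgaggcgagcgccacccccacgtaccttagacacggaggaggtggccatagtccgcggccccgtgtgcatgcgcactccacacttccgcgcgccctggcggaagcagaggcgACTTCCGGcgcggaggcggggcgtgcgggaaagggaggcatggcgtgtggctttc
The same element in Gars and Yars is shown with 10 bases on either side, at chr6:55037960-55037988 and chr4:129189896-129189924, both on the plus strand. In Gars the capitals again show the reverse complement, and in Yars they read as the element itself.
Gars: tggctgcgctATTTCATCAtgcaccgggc
Yars: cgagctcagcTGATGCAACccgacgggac

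Synthetase genes were marked by H4K16ac in both libraries more often than protein-coding genes at large. In the wild-type list 31 of 36 genes had a peak no more than 1 kb from an annotated gene end, against 46.8% of all protein-coding genes. In the KAT8-deficient list the count was 29 of 36, against 43.3%. Both lists marked 26 genes (35.8% of all genes), the wild-type list alone 5 (11.1%), the KAT8-deficient list alone 3 (7.52%) and neither list 2. The share of wild-type-marked synthetase genes without a KAT8-deficient peak was 16.1%, and over all genes it was 23.6%. Of the 18 synthetase genes whose end windows touch no other protein-coding gene, 13 were marked in both lists (72.2%), and of the 14839 such genes in all 27.5% were. No test was made of these differences, and synthetase genes were not matched to genes of like expression.

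Windows at annotated gene ends missed some promoters. A transcription start with its strand was at hand for 27 synthetase genes (13 cytosolic, 14 mitochondrial) of 17492 protein-coding genes. For 4 of them, Aars, Aars2, Eprs and Tars2, the start lay 6064, 3317, 1627 and 1388 bp inside the annotated gene, and a start more than 1 kb from the annotated end occurred for 9.95% of all genes. At the starts, 24 of 27 genes were marked in the wild-type list and 25 in the KAT8-deficient list, against 46.7% and 42.7% of all starts. Both lists marked 24 (36.4% of all), the wild-type list alone marked 0 (10.3% of all) and the KAT8-deficient list alone marked 1, Farsa (6.29% of all). Mars and Vars2 had no peak at the start in either list. So every synthetase start marked in the wild-type list was also marked in the KAT8-deficient list, while 1810 genes in all were not.

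**Figure D1:**
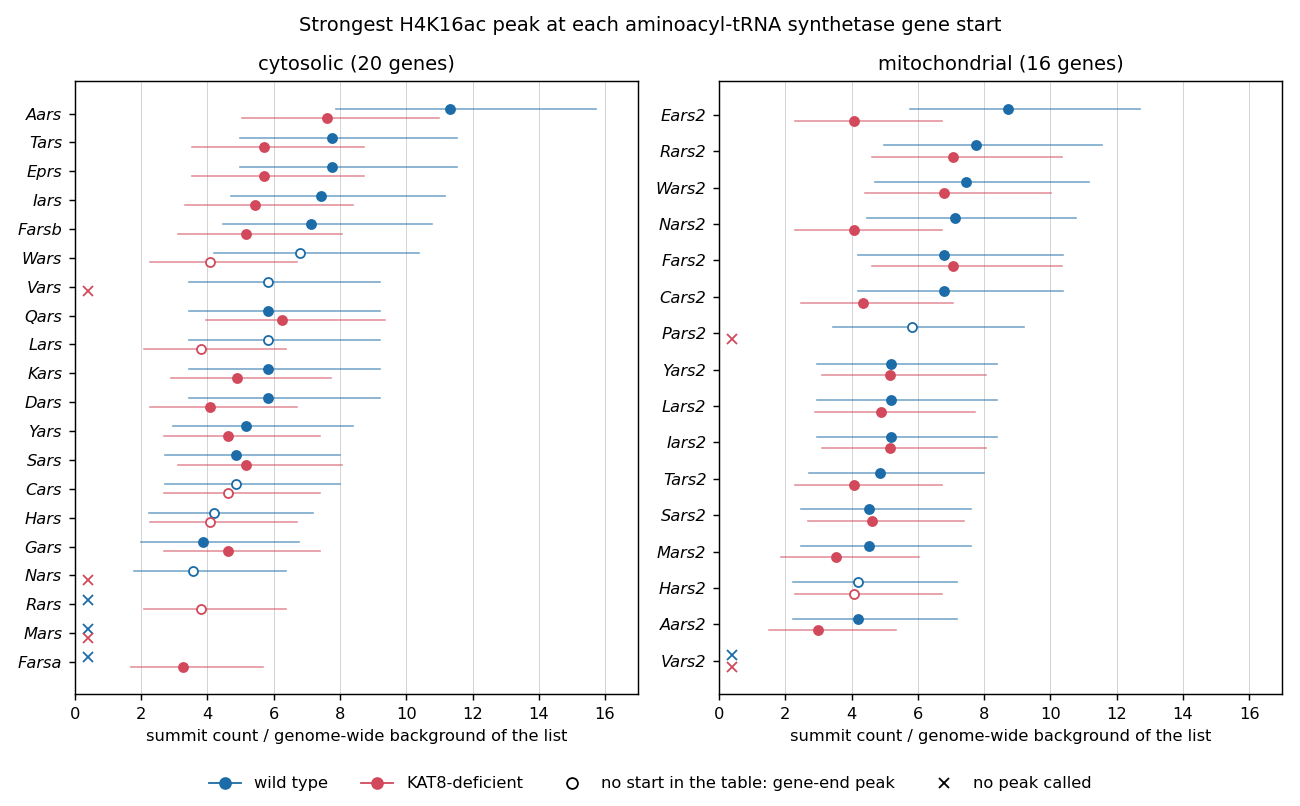
Summit count of the strongest peak at the transcription start, divided by the genome-wide background of its list (x axis, scaled count without a unit), for each synthetase gene, cytosolic on the left and mitochondrial on the right, in the wild-type (blue) and KAT8-deficient (red) library. Points are single libraries, bars are exact 95% intervals for counting error only, open points are gene-end peaks of genes without a start in the promoter table, and crosses mark genes with no peak. The wild-type value of Aars, 11.3, is the highest of those drawn, which do not include the 3′ peak of Lars2 (47.5 and 60.0), and the bars of both libraries overlap for every gene that has a value in both.

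Among cytosolic genes outside the multisynthetase complex, the alanyl-tRNA synthetase gene Aars had the highest −log10 q of any wild-type synthetase start. Its start peak had a fold of 4.86, a −log10 q of 11.0 and 35 fragments at the summit in the wild-type library. In the KAT8-deficient library the values were 4.10, 6.71 and 28. This peak lies over the promoter printed above and was outside the gene-end windows, where −log10 q at Aars reached 2.74 in the wild-type list and 1.43 in the KAT8-deficient one. Those end peaks lie within 1 kb of the start of the neighbour Ddx19b, so the gene-end mark of Aars cannot be assigned to either gene.

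The threonyl-tRNA synthetase gene Tars had a start fold of 5.43 with 24 fragments in the wild-type library and of 4.06 with 21 in the KAT8-deficient one, at −log10 q of 8.72 and 4.83. Farsb, the beta subunit of phenylalanyl-tRNA synthetase, had 22 and 19 fragments at folds of 4.44 and 3.86. Both genes had the higher fold and the higher count in the wild-type library. The KAT8-deficient to wild-type ratio of scaled counts was 0.735 at Tars and 0.725 at Farsb. Their exact 95% counting intervals, 0.389 to 1.38 and 0.371 to 1.40, include equality. Yars (tyrosine), at 16 and 17 fragments, and Sars (serine), at 15 and 19, had the higher count in the KAT8-deficient library, but the scaled count of Yars was still lower there, at a ratio of 0.892, while that of Sars was higher, at 1.06. The exact 95% counting intervals of the ratios at Yars and Sars, 0.424 to 1.89 and 0.512 to 2.25, also include equality.

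Farsa, the alpha subunit that pairs with Farsb, was marked at its start only in the KAT8-deficient list. That peak was weak, with 12 fragments, a fold of 2.58 and −log10 q of 0.80, and the smallest summit count called at all was 9 in that list and 8 in the wild-type list. Of genes scored at their ends only, Cars (cysteine) had 15 fragments in the wild-type and 17 in the KAT8-deficient library, and Wars (tryptophan) had 21 and 15. Nars (asparagine) and Vars (valine) were marked in the wild-type list alone, with 11 and 18 fragments at folds of 2.76 and 2.59. The Vars peak also lies within 1 kb of the start of its neighbour D17H6S56E-5, so it cannot be assigned to either gene. Hars (histidine) and its mitochondrial counterpart Hars2 lie head to head and share 1 peak, with 13 and 15 fragments.

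Of the 8 complex members Dars, Eprs, Iars, Kars, Lars, Mars, Qars and Rars, gene-end windows marked 5 in the wild-type list and 7 in the KAT8-deficient list, 5 of them in both. Of all genes, 46.8%, 43.3% and 35.8% were so marked. At q under 0.05 the complex counts were 5, 5 and 5, against 36.8%, 31.3% and 25.3% of all genes. Eprs, the fused glutamyl-prolyl enzyme, was marked by neither list at its annotated ends. At its start it had 24 fragments in the wild-type and 21 in the KAT8-deficient library, at −log10 q of 5.95 and 4.61. Counting that start, Eprs was marked in both. Iars (isoleucine) had 23 and 20 fragments with −log10 q of 6.07 and 3.37, and Dars (aspartate) had 18 and 15 with −log10 q of 5.33 and 2.09. For both genes the wild-type value was the higher by each measure, but these measures share the same summit count and background. The scaled KAT8-deficient to wild-type ratio was 0.730 at Iars and 0.700 at Dars. The counting intervals of these ratios, 0.380 to 1.39 and 0.328 to 1.47, include equality.

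Lars (leucine), scored at its ends only, had a fold of 3.53 in the wild-type list against 2.83 in the KAT8-deficient one. Qars (glutamine) had a start fold of 3.06 and 18 fragments in the wild-type and of 3.91 and 23 in the KAT8-deficient library. The scaled KAT8-deficient to wild-type ratio at the Qars start was 1.07, and its counting interval, 0.554 to 2.11, includes equality. Rars (arginine) and Mars (methionine) were the complex members marked in the KAT8-deficient list alone, with 14 and 11 fragments at folds of 2.78 and 2.36. Their −log10 q was 1.28 and 0.49, so neither peak had q under 0.05. The Mars peak lies at the 3′ end of the gene, in a window shared with Ddit3, an ATF4-induced transcription factor, and Mars had no peak at its start.

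The genes that serve both compartments were marked at their starts in both libraries. Gars (glycine) had 12 fragments in the wild-type and 17 in the KAT8-deficient library, and its scaled ratio of 1.19 was the highest of the 24 genes marked at the start in both. Kars (lysine), also a complex member, had 18 in each library and a scaled ratio of 0.840. The peak at Kars also lies within 1 kb of the start of its divergent neighbour Terf2ip, a telomere protein gene.

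A mitochondrial synthetase gene held the highest start fold of the set in each list, Nars2 in the wild-type and Fars2, at 5.31, in the KAT8-deficient one. Nars2 (asparagine) had 5.62 in the wild-type list against 3.42 in the KAT8-deficient one, with 22 and 15 fragments. Wars2 (tryptophan) had 5.50 and 5.04, with 23 and 25 fragments. Rars2 (arginine), whose promoter is printed above, had 5.17 and 5.04, with 24 and 26 fragments. Wars2 and Rars2 thus stayed near the same fold across the lists and Nars2 did not, but folds are not comparable between the lists. The scaled ratio was 0.573 at Nars2, with a counting interval of 0.276 to 1.16. It was 0.913 (0.497 to 1.68) at Wars2 and 0.910 (0.502 to 1.66) at Rars2. These intervals overlap and all include equality, so the counts do not set Nars2 apart.

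Fars2 (phenylalanine) had the highest −log10 q of the KAT8-deficient starts, at 9.04 with 26 fragments, against 6.30 with 21 in the wild-type library. Ears2 (glutamate) had the lowest scaled ratio of all, 0.467, from 27 fragments in the wild-type and 15 in the KAT8-deficient library. The counting interval of that ratio, 0.231 to 0.909, lies below equality but includes 0.780, the median ratio over all genes marked in both lists, as did the intervals of all 24 synthetase starts. The peaks at Ears2, Fars2, Rars2 and Sars2 also lie within 1 kb of the starts of the neighbours Ubfd1, Lyrm4, Orc3 and Mrps12. That at cytosolic Yars lies within 1 kb of the start of S100pbp. Such a neighbouring start was counted for 6 of the 24 wild-type synthetase peaks (25%) and for 18.7% of wild-type start peaks of all genes. A peak near the starts of neighbouring genes cannot be assigned to either gene.

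The remaining mitochondrial starts are given by their wild-type and KAT8-deficient counts. Cars2 (cysteine) had 21 and 16 fragments, Iars2 (isoleucine) and Yars2 (tyrosine) each 16 and 19, Lars2 (leucine) 16 and 18, Mars2 (methionine) 14 and 13, Sars2 (serine) 14 and 17 and Tars2 (threonine) 15 in each library. Aars2 (alanine), unmarked at its annotated ends, had a weak start peak of 13 and 11 fragments with −log10 q of 1.41 and 0.37. Among the genes marked at an end in the wild-type list alone, Pars2 (proline) had 18 fragments, Vars2 (valine) 14 at its 3′ end and Tars2 10, with −log10 q of 2.32, 1.36 and 0.43. No peak of the other list overlapped the gene-end peaks of the 8 genes marked in a single list. This follows almost wholly from how those genes were chosen and is no separate evidence.

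Over the 24 starts marked in both lists, the summit counts summed to 467 in the wild-type (exact Poisson 95% interval 426 to 511) and 453 in the KAT8-deficient library (412 to 497). Scaled by background, the KAT8-deficient sum was 0.815 of the wild-type sum, and over the 6362 genes marked in both lists it was 0.764. The median ratio per gene was 0.840 for synthetase genes and 0.780 for all genes, and 79.2% of synthetase genes and 84.0% of all genes had the lower scaled count in the KAT8-deficient library. Within the set, the median was 0.735 for the 11 cytosolic and 0.910 for the 13 mitochondrial genes, while the ratios of the sums were 0.814 and 0.816. The scaling rests on each library's own background without a spike-in, so depth and a change of the mark everywhere cannot be told apart, and the difference between genotypes and that between 2 libraries cannot be told apart either.

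Strong peaks were fewer in the KAT8-deficient list. With −log10 q of 5 as the minimum, 11 of 27 synthetase starts were marked in the wild-type list against 4 in the KAT8-deficient one, all 4 of which were among the 11. The background shares were 13.4%, 6.31% and, for both lists, 4.88%. At gene ends the same minimum left 10 and 4 of 36 genes, 4 of them in both lists, against 12.4%, 5.99% and 4.59% of all genes. At starts, the cytosolic count was 6 in the wild-type list and 1 in the KAT8-deficient one, where Aars remained, and the mitochondrial count was 5 and 3, where Fars2, Rars2 and Wars2 remained. At q under 0.05, 23 starts were marked in each list and 22 in both, against 37.8%, 31.9% and 26.6% of all starts, and 26 gene ends were marked in each list and 23 in both, against 36.8%, 31.3% and 25.3%. Since q also depends on depth and background, these counts describe the lists and are no measure of change at single genes.

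The peaks sat on the starts. The median summit lay 54 bp inside the gene in the wild-type and 66 bp in the KAT8-deficient list. It was within 250 bp of the start for 21 of 24 wild-type peaks (87.5%) and 21 of 25 KAT8-deficient ones (84.0%). Over all marked starts these shares were 69.1% and 62.8%. At Yars2 the summit moved from 418 bp inside the gene to 67 bp, and at Dars from 33 bp before the start to 457 bp inside. At Rars2, Cars2, Tars2, Yars and Fars2 it differed by 10 bp or less between the lists.

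**Figure D2:**
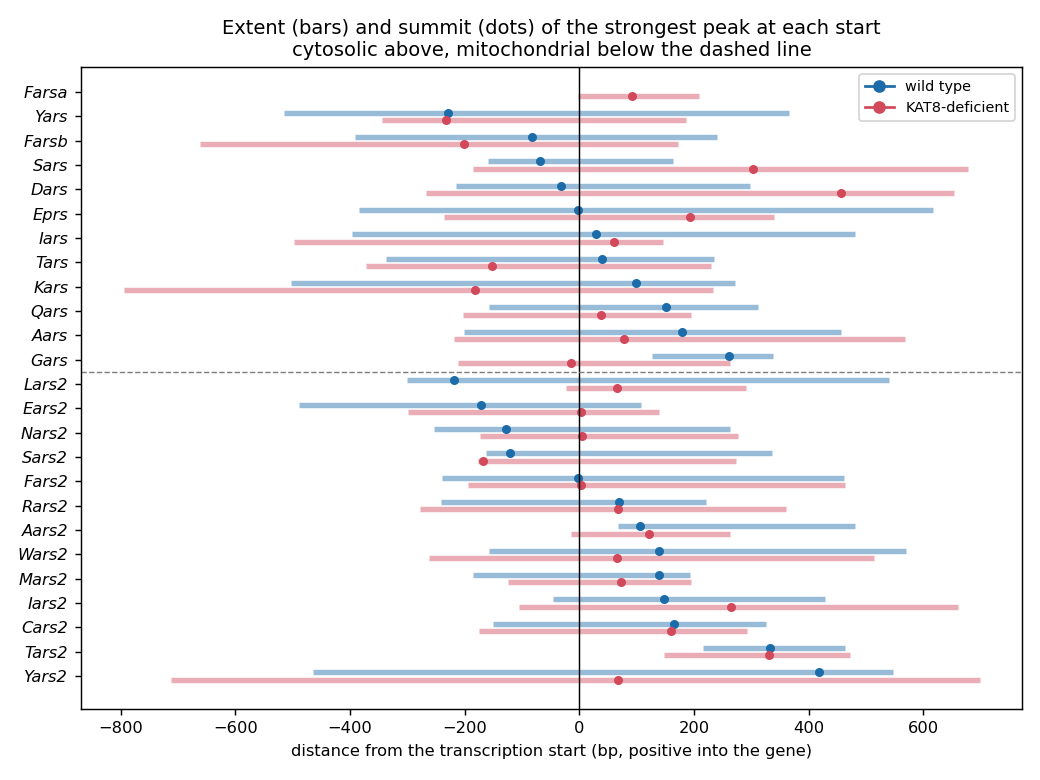
Extent (bars) and summit (dots) of the strongest peak at each of the 25 synthetase starts marked in at least 1 list, in bp from the transcription start (x axis, positive into the gene), wild type in blue and KAT8-deficient in red, cytosolic genes above the dashed line and mitochondrial genes below it. Summits range from -229 to 418 bp in the wild-type and from -232 to 457 bp in the KAT8-deficient list.

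Cytosolic and mitochondrial genes did not differ in a way that held across windows. At gene ends, 14 of 20 cytosolic (70.0%, exact binomial 95% interval 45.7 to 88.1%) and 12 of 16 mitochondrial genes (75%, 47.6 to 92.7%) were marked in both lists. The median fold was 3.50 for cytosolic and 3.70 for mitochondrial genes in the wild-type list, beside 3.42 for all marked genes. In the KAT8-deficient list the medians were 3.33 and 3.51, beside 3.12. The median −log10 q was 2.96 and 3.21 in the wild-type list (2.79 for all marked genes) and 2.85 and 2.93 in the KAT8-deficient list (1.95).

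At starts the order turned. The wild-type median fold was 4.26 for cytosolic and 3.70 for mitochondrial genes, and the median −log10 q was 5.33 and 3.21. In the KAT8-deficient list the folds were 3.61 and 3.42 and the −log10 q values 3.42 and 2.37. Over all marked starts the median fold was 3.49 in the wild-type list against 3.20 in the KAT8-deficient one, and the median −log10 q was 3.04 and 2.18. The starts include the peaks at Aars and Eprs that the gene-end windows missed, and leave out the genes without a start at hand.

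Fold and −log10 q ranked the synthetase peaks almost alike. Across the strongest gene-end peaks, Spearman's rho was 0.975 over 31 genes in the wild-type and 0.977 over 29 genes in the KAT8-deficient list, and without Lars2 it was 0.972 and 0.974. Over all peaks it was 0.933 and 0.938. These are correlations across genes within a library, and both measures come from the same fragment count and background. The percentile by q lay more than 10 points above the percentile by fold for 4 of 31 wild-type genes and 1 of 29 KAT8-deficient genes, and the opposite did not occur. Over all peaks it did so for 7147 of 58229 and 5778 of 55149, and the opposite did not occur there either. By the recovered values, the caller had used a background above the genome-wide one at 90.3% of wild-type and 96.6% of KAT8-deficient synthetase peaks. The share was 83.5% and 74.2% for the strongest gene-end peaks of all marked protein-coding genes and 63.5% and 56.8% for all peaks, and a higher background lowers the fold that a given count yields.

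**Figure D3:**
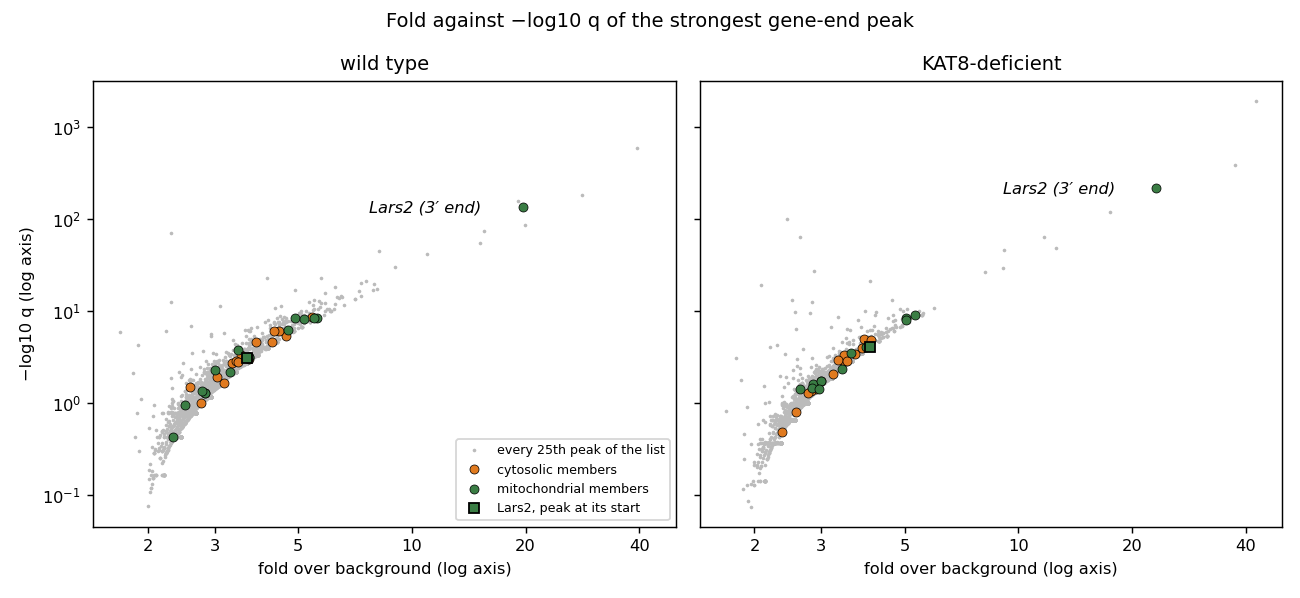
Fold over background (x axis, log scale) against −log10 q (y axis, log scale) of the strongest gene-end peak of each marked synthetase gene, cytosolic in orange and mitochondrial in green, with every 25th peak of the list in grey and the Lars2 start peak as a square. The 3′ peak of Lars2, at a fold of 19.7 in the wild-type list against 23.2 in the KAT8-deficient one, stands apart from every other synthetase gene, while its start peak lies among them.

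The 3′ peak of Lars2, the mitochondrial leucyl-tRNA synthetase gene, had few peers in either list. It lay at chr9:123461785-123462227 (mm10) in the wild-type list, 443 bp wide, with a fold of 19.7, a −log10 q of 136 and 147 fragments at the summit (exact Poisson 95% interval 124 to 173). In the KAT8-deficient list it lay at chr9:123461793-123462212, 420 bp wide, with a fold of 23.2, a −log10 q of 218 and 221 fragments (193 to 252). By fold it ranked 63 of 58229 and 45 of 55149. The annotated gene runs from 123366927 to 123462675 on the plus strand, so the summit lies 95069 bp from the start and 679 bp before the 3′ end.

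In contrast, the peak at the Lars2 start was ordinary, with folds of 3.65 and 4.06, −log10 q of 3.12 and 4.10 and 16 and 18 fragments. Inside the gene the wild-type list had 2 further peaks, with folds of 3.74 and 2.61. The KAT8-deficient list had 4 further peaks, with folds between 2.66 and 3.24. No other peak lay in the last kilobase of the gene in either list, and the 3′ peak stood alone at that height.

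**Figure D4:**
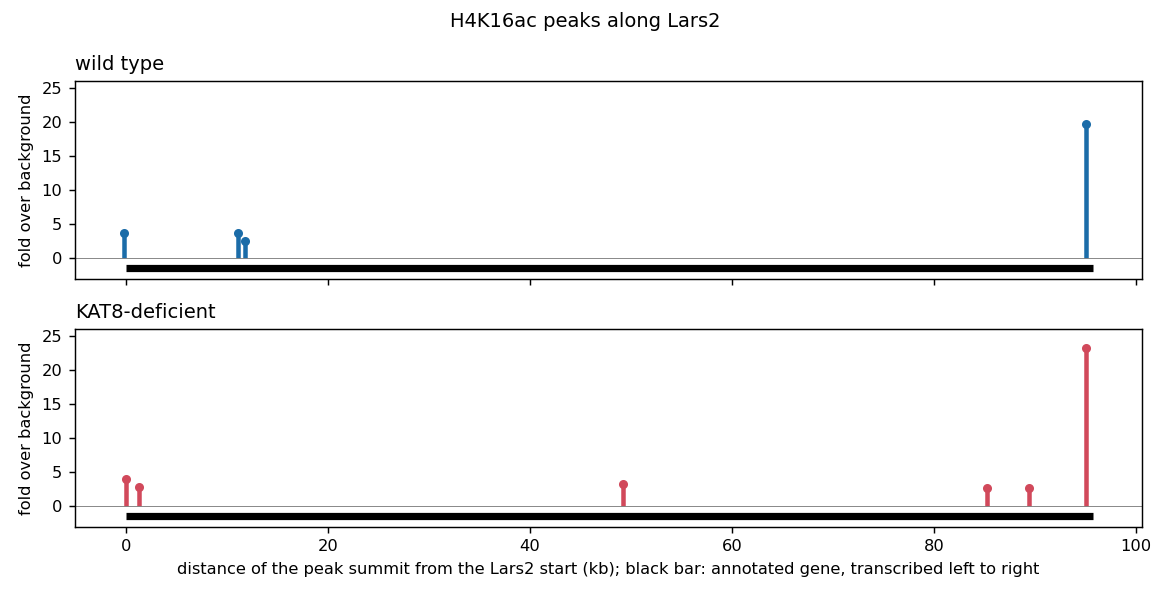
Fold over background (y axis) of every peak in Lars2 against the distance of its summit from the transcription start in kb (x axis), wild type above and KAT8-deficient below, with the annotated gene as a black bar transcribed from left to right. The 3′ peak stands at 19.7 and 23.2, and every other peak of the gene is below 5 in both lists.

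Several measurements bear on whether the Lars2 3′ peak resembles the H4K16ac peaks at synthetase starts. Its summit fell on the same base, 123461996, in both lists, and its edges differed by 8 and 15 bp. Among peaks that overlapped between the lists, 1.03% of wild-type peaks had the same summit base and 8.87% had summits within 10 bp. Among the 95 wild-type peaks with a fold of at least 15 these shares were 17.9% and 61.1%, so a shared summit base is less rare among peaks of this height.

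The peak was wider than the median peak of its list, 443 against 296 bp in the wild-type and 420 against 285 bp in the KAT8-deficient list. The share of local fragments under its summit was high. That share is another form of the fold, from the same summit count and local background, and is no separate measure of shape. If the caller's local background was counted over its default of 10 kb with fragments of 200 bp, 45.1% of the wild-type and 51.6% of the KAT8-deficient fragments in 10 kb lay under the summit. The median over all peaks with a local background was 6.56% and 6.22%, and the highest other synthetase peak had 13.7% and 12.7%. Lars2 was at the 99.8th and 99.9th percentile of its list.

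The scaled KAT8-deficient to wild-type ratio of the Lars2 3′ peak was above the median of shared peaks of like height, but within their range. It was 1.26 (95% interval 1.02 to 1.57, for counting error only). Over 94 shared peaks with a fold of at least 15 the median ratio was 0.774, with a range from 0.518 to 1.48, and 6 of them were at or above the Lars2 value. At the Lars2 start the ratio was 0.945 (0.455 to 1.98). Gene-end peaks whose −log10 q reached 50 in both lists occurred at 3 other genes, Wls, Gm32584 and Asmt, named after their values were seen. Whether reads from repeated or duplicated sequence, a control library or duplicate reads account for the Lars2 peak was not tested, since the sequence under it, its mappability and the treatment of duplicates were not examined here. The mitochondrial gene-end medians, which include it, are therefore given without it as well. For mitochondrial genes other than Lars2 the median gene-end fold was 3.58 (wild type) and 3.42 (KAT8-deficient), and the median −log10 q was 3.21 and 2.37. With Lars2, 6 and 4 mitochondrial genes reached a −log10 q of 5 at an end, and without it 5 and 3. The other gene-end counts and shares include Lars2.

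Among the synthetase promoters at hand, the amino acid response element was found only in cytosolic ones. The letters TGATGNAAN, on either strand, occurred in the 300-base promoters of 5 of 27 synthetase genes (18.5%), against 3.66% of all 17492 promoters and 2.03% of the 6362 marked in both lists. All 5, Aars, Gars, Iars, Tars and Yars, were among the 13 cytosolic genes (38.5%), and 0 of 14 mitochondrial promoters held the letters. In Aars there are 2 matches, beginning at -113 and 8 from the start base in the printed direction. In Tars, Gars, Iars and Yars the match begins at -16, -31, 6 and 3. A match of these letters is not evidence that a factor was bound.

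All 5 of these starts had a peak in both libraries, that at Yars also within 1 kb of the start of S100pbp. The wild-type fold ran from 5.43 at Tars and 4.86 at Aars through 4.32 at Iars and 3.47 at Yars to 3.18 at Gars. In the KAT8-deficient list the folds were 4.06, 4.10, 3.44, 3.52 and 3.46. The scaled ratio was lowest at Aars, at 0.672, and highest at Gars, at 1.19, and the counting intervals of these ratios, 0.394 to 1.14 and 0.536 to 2.73, overlap.

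The other letters searched were rarer or near their background. The ETS core CCGGAAGT, both strands, was in 3 synthetase promoters, Rars2, Farsa and Mars (11.1%, against 5.29% of all and 9.56% of those marked in both lists). The palindromic binding element of NRF1 was in 0 of 27 against 1.32% of all promoters. TATAAA, both strands, was in Tars2, Farsa and Aars2 (11.1% against 13.3%). The median number of CpG dinucleotides per 100 bases was 6 in synthetase promoters, 4.33 in all promoters and 7.33 in those marked in both lists. That these letters are absent from a window says nothing about a factor's binding.

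Genes that work with the synthetases were marked at their ends in both lists more often than the 35.8% of all genes. The scaffold genes of the multisynthetase complex, Aimp1, Aimp2 and Eef1e1, were all 3 marked in both lists. Of 12 further genes for charging and editing enzymes, 11 were marked in both lists and Mtfmt, which formylates the mitochondrial initiator methionyl-tRNA, in the wild-type list alone. At q under 0.05, 7 of these 12 were marked in both lists, against 25.3% of all genes. Of 12 translation elongation factor genes, 11 were marked in both and Tufm, the mitochondrial elongation factor Tu, in the wild-type list alone.

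Of 22 genes for tRNA processing and export, 13 were marked in both lists, 3 in each list alone and 3 in neither. Tsen15 (a tRNA splicing endonuclease subunit) and Rpp25 and Rpp30 (RNase P subunits) were marked in the wild-type list alone, and Elac2 (the tRNA 3′ processing enzyme), Pop4 (RNase P) and Rtcb (the tRNA ligase) in the KAT8-deficient list alone. Across all genes, 35.8% were marked in both lists, 11.1% in the wild-type list alone and 7.52% in the KAT8-deficient list alone. Of the wild-type-marked tRNA processing and export genes, 18.8% lacked a KAT8-deficient peak, against 23.6% over all genes.

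ATF4 and its amino acid response genes showed the most wild-type-only calls of the 5 lists. Of 28 genes, 14 were marked in both lists, 9 in the wild-type list alone, 1 in the KAT8-deficient list alone and 4 in neither. The 9 were Atf4, Atf5, Cebpb and Cebpg (transcription factors of the response), Phgdh (serine synthesis), Slc7a5 and Slc3a2 (the subunits of an amino acid transporter), Ppp1r15a (a phosphatase subunit for eIF2alpha) and Eif2ak2 (an eIF2alpha kinase). The 1 was Eif2ak1, another eIF2alpha kinase. Thus 39.1% of the wild-type-marked genes of this list lacked a KAT8-deficient peak, against 23.6% over all genes and 16.1% of synthetase genes. Slc3a2 had the strongest of these peaks, at a fold of 5.09 with −log10 q of 8.67 and 26 fragments, and Atf4 itself had a weak one, at a fold of 2.34 with −log10 q of 0.87. No test was made of the difference between lists, and RNA was not measured.

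**Figure D5:**
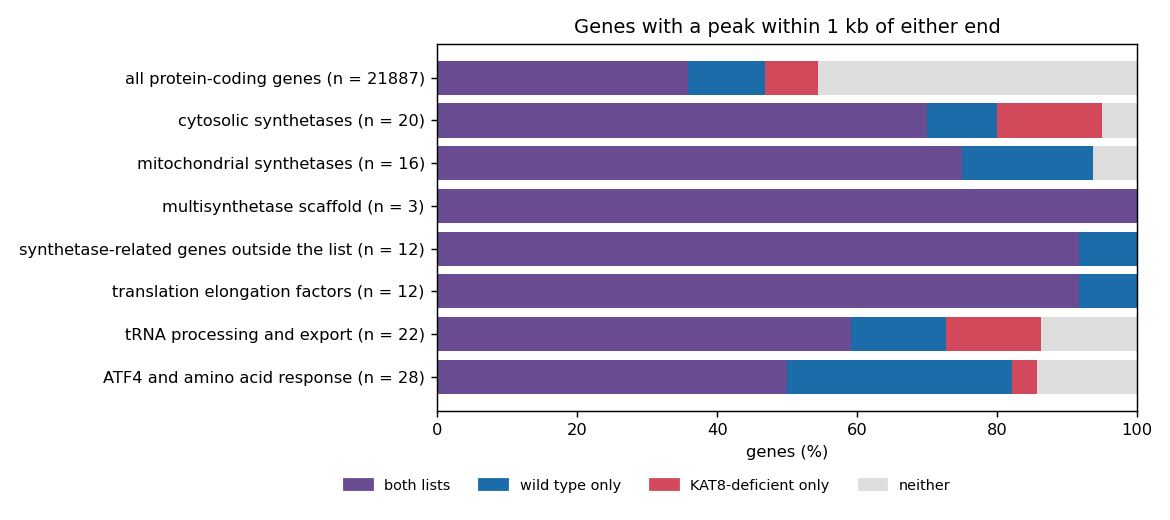
Share of genes (x axis, percent) with a peak within 1 kb of either end in both lists (purple), in the wild-type list alone (blue), in the KAT8-deficient list alone (red) or in neither (grey), for all protein-coding genes, the cytosolic and mitochondrial synthetases and the related lists. Both lists marked 35.8% of all genes, 70% of cytosolic and 75% of mitochondrial synthetase genes, and the wild-type-only part is widest for the ATF4 list, 9 of 28 genes.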

How the data were processed

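H4K16ac CUT&Tag of 2 libraries was analysed from 1 deposited peak list each, 58229 peaks for wild type and 55149 for KAT8-deficient cells. Per the submitters' processing notes, Bowtie 0.12.8, MACS2 2.2.7.1 and DiffBind were used with build mm10. The sources used here do not give their roles, the peak calling settings, any control or the treatment of duplicates. The deposited lists give, for each peak, a score, a fold (a ratio) over background, −log10 of the p-value, −log10 of the q-value and the summit. The authors deposited 1 list for each library.

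Groups were taken from the genotype labels. A gene was marked where at least 1 bp of a peak lay within 1 kb of an end of its RefSeq gene (GRCm38.p6), or, separately, of its transcription start, and the peak with the highest −log10 q represented it. Summit counts and backgrounds were solved from fold, read as (count + 1)/(background + 1), and the Poisson p, and the solution was tested on simulated data. A local background was a multiple of 0.02 within 0.01 of a step for 99.9% of peaks. Read totals were not at hand, and depth was described through the genome-wide background, 3.09 and 3.68. Intervals are exact at 95% and cover counting error only, since duplicate fragments may be included.

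All synthetase genes were named. Values in full were reserved for Lars2, genes marked in a single list, complex members, the 5 highest by −log10 q and the top 5% of a list. Related genes were named where a single list marked them. The genes and lists were chosen with earlier results of these data known. Alternatives were windows of 500 bp, 3 kb and the whole gene with 5 kb, stricter q, the strongest 20000 peaks, a larger overlap, windows free of neighbours, and leaving out Lars2 or Gars and Kars. Scripts ran in Python 3.11.15 with pandas 2.3.3, numpy 2.4.6, scipy 1.17.1 and matplotlib 3.10.9.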

Additional observations from a re-analysis of the deposited data

How the results depend on the processing

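Of 144 values recomputed under alternatives, 111 stayed within their range, 21 moved and 12 reversed. Every reversal concerned the mitochondrial minus cytosolic difference of medians, which at gene ends was 0.20 for fold and 0.25 for −log10 q in the wild-type list and 0.18 and 0.08 in the KAT8-deficient list. At starts only, it was -0.56 and -2.12 (wild type) and -0.19 and -1.05 (KAT8-deficient). With gene ends or start, chosen after seeing the data, it was -0.13 and -0.11, and -0.24 and -0.85. In the KAT8-deficient list it was also -0.025 and -0.22 with 500 bp windows, and -0.48 for −log10 q both when at least 50% of a peak had to lie in the window and without Lars2. The cause was not tested.

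Marking in both lists moved to 90% of cytosolic genes with 3 kb windows and 95% over the whole gene, from 70%. Wider windows can take in more peaks at any gene, and no share of all protein-coding genes was computed for them. The 90% and 95% therefore cannot be read as specific to synthetase genes. At starts, marking in both lists moved to 92.9% of mitochondrial genes, from 75%. At a −log10 q of at least 5, 10 genes were marked in the wild-type list, 4 in the KAT8-deficient list and 4 in both, which are 0% of cytosolic and 25% of mitochondrial genes. In windows free of other genes, fewer genes enter, and 14, 15 and 13 of 18 were marked. At q under 0.05, 7 of 12 charging and editing genes were marked in both lists.

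No paired analysis was possible because the labels give no replicate numbers and each genotype has 1 library, which also leaves no replicate to leave out. The lowest summit called held 8 fragments in the wild-type list and 9 in the KAT8-deficient one, and the mark below that was not detectable at this depth. A local background above the genome-wide one raises the count needed, so larger counts can also go uncalled. Such a background was used at 90.3% of wild-type and 96.6% of KAT8-deficient synthetase gene-end peaks.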
